A study of Mus musculus with 28 samples.

Results

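The 45 genes described here are a textbook set of interferon-induced genes, chosen by name for their known induction by type I, type II or type III interferon. Earlier results of these data were known when the genes were chosen. Of these, 43 had a probe set annotated to that gene alone and were measured among 18194 genes, and Isg15 and Ifi44 were not analysed here. The 43 genes have 74 probe sets among the 45101 on the array, and each gene is represented by its probe set with the highest mean over all arrays. They were followed in the retroperitoneal fat pad, a depot of white fat, of mice whose strain is written C57BK/6J in the labels and that were 9 weeks old. One diet held conjugated linoleic acid (CLA) at 0.5%, as the trans-10 cis-12 isomer, which is known to shrink white fat in mice, and the other was the control diet without it. Pads were collected after 1, 2, 3, 4, 7, 10 and 17 days of feeding, which makes 14 groups with 2 arrays apiece, 28 in all. Pads of 10 mice were pooled, and the labels leave unclear whether the 2 arrays of a group come from separate pools. Pools of 10 for each group come to 140 mice, the number in the series record, and pools of 10 for each array to 280. If 1 pool gave both arrays of a group, the tests of single days, of late against early days, of the interaction and of control days measure technical spread only.

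Interferons are secreted proteins that bind receptors on the cell surface and activate the kinases JAK1, JAK2 and TYK2. Type I and type III interferons act on many genes through the interferon-stimulated response element (ISRE) in their promoters, and interferon gamma through the gamma-activated site (GAS). The induced genes encode proteins that sense or degrade viral RNA, block viral replication, attack intracellular pathogens and prepare peptides for presentation, besides the transcription factors and the feedback proteins that set the strength of the response. Adipocytes, macrophages and endothelial cells of fat can all respond to interferon.

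The promoter stretches below are examples chosen from the genes that hold a match, whether or not they moved with CLA. They come from RefSeq windows on GRCm38.p6 that run from 250 bases before to 50 bases after each annotated start, and only bases before the start are shown, 5′ to 3′ on the gene's strand. Capitals mark matches, on either strand, to the ISRE core, which is GAAA, then any 2 bases, then GAAA, in the first group, and adjoining matches may overlap.
Oas1a, chr5:120907526-120907557, minus strand: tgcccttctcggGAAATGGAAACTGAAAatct
Ifit1, chr19:34640773-34640825, plus strand: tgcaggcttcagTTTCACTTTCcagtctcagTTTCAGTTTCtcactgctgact
Bst2, chr8:71537575-71537614, minus strand: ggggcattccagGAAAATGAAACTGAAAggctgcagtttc
Irgm1, chr11:48871423-48871462, minus strand: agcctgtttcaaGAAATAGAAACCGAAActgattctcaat
Gbp2, chr3:142620592-142620625, plus strand: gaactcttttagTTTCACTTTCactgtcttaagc
Igtp, chr11:58199510-58199543, plus strand: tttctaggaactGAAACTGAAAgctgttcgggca
The first 4 genes rose on CLA over the 7 days, while Gbp2 and Igtp did not pass the test. In the second group, capitals mark matches to the GAS letters TTCNNNGAA, which read the same on either strand.
Irf8, chr8:120736175-120736225, plus strand: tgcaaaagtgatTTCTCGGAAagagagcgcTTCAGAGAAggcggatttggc
Psmb8, chr17:34198086-34198118, plus strand: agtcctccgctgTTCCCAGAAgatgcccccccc
Isg20, chr7:78913339-78913371, plus strand: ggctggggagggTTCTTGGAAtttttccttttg
Of these, Irf8 and Psmb8 rose and Isg20 fell.

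A promoter window was found for 34 of the 45 genes, and 16 of the 34 (47.1%) hold the ISRE core, against 3.99% of 27025 genes with a window. By window, the core is in 17 of 43 (39.5%), against 3.44% of all 32851 windows. The GAS letters are in 12 of the 34 genes (35.3%), against 9.55% of all genes, and in 12 of the 43 windows (27.9%), against 8.3% of all. A match describes the letters and does not show that a factor binds there. Among the 32 measured genes with a window, the 15 that hold the ISRE core had 11 rises, 0 falls and a median log2 difference of 0.39 over the 7 days. The 17 without it had 14 rises, 1 fall and a median of 0.57. The 12 genes with the GAS letters had 10 rises and 1 fall, and the 20 without had 15 rises and 0 falls. All the genes compared come from the list of interferon-induced genes. Whether carrying either set of letters went with a rise was not tested.

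The log2 values of all probe sets ran from 1.90 to 14.18 with array medians of 4.1 to 4.2, and arrays of 1 group correlated across genes at 0.979 to 0.995. The number of arrays limits the precision. The 3′ minus 5′ difference of the Actb control probe sets, a sign of RNA degradation, was 1.5 to 2.77 on the day 1 arrays and 0.77 to 1.87 on the others. For Gapdh it was 0.15 to 1.33 on day 1 and 0.15 to 1.2 on the others. The Actb difference was lower on both CLA arrays than on both control arrays on days 2, 4, 10 and 17. It overlapped between the diets on days 1, 3 and 7. On day 4 it was 0.77 and 0.84 on CLA and 1.14 and 1.48 on control. The Gapdh difference overlapped on day 4, at 0.42 and 0.56 on CLA and 0.52 and 0.43 on control. The part of RNA quality in the results of day 1 and of the later days was not tested.

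One control array stood apart for these genes, the first replicate of day 2. It had the highest of the 14 control values for 27 of the 43 genes (62.8%), against 12.8% of all genes. Mx1, a dynamin-like antiviral GTPase, stood at 6.20 on it and at 3.58 to 4.08 on the other 13 control arrays. Oas1a, which makes the 2-5A signal that switches on RNase L, stood at 9.14 against 7.15 to 8.09. The mean of 12 macrophage marker genes was also highest there, at 9.16 against 8.02 to 8.74 on the other control arrays. The counts of calls on day 2 and over all days, and the largest differences among them, are therefore also given without this array, and other values include it.

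**Figure D1:**
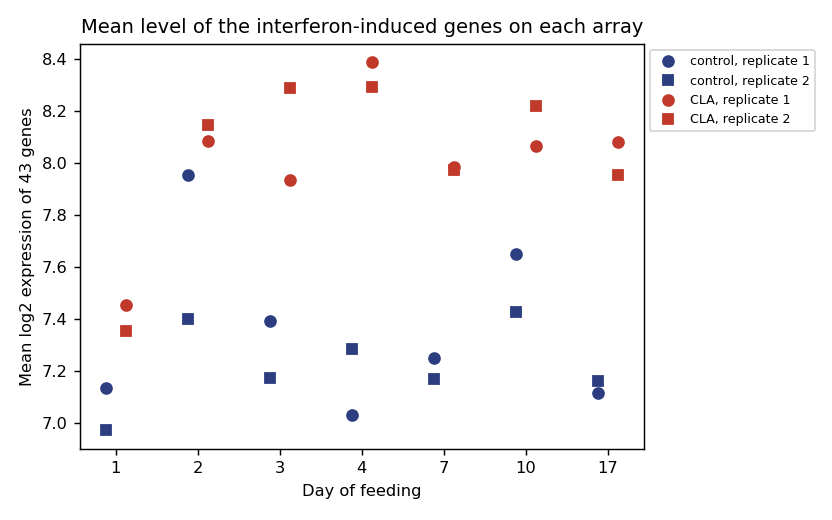
Mean log2 expression of the 43 genes (vertical axis) on each of the 28 arrays, by day of feeding (horizontal axis), with colour for diet and shape for replicate number. The first control replicate of day 2 lies at 7.95, above every other control array, and the CLA arrays of days 2 to 17 lie between 7.93 and 8.39.

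Over the 7 days, most of the interferon-induced genes were higher on CLA. The differences are CLA minus control in log2 units, tested with limma on the group means with the day as a block, and a gene is said to rise or fall when its p, adjusted over all 18194 genes, is under 0.05. Of the 43 genes, 32 rose, 2 fell and 9 did not pass, with a median of 0.59, against 18.7% of all genes that rose, 19.8% that fell and a median of -0.03 over all genes. The 34 called stand against 38.5% of all genes called in either direction. The largest rises were those of Irf5 (2.03), Oasl1 (1.95), Oas1a (1.90) and Mx1 (1.85), and the falls were those of Ifi27l2a (-1.07) and Isg20 (-0.52). 27 genes were higher on CLA on each of the 7 days, against 13.4% of all genes, and 1 gene, Ifi27l2a, was lower on each, against 16.9%. Without the first control array of day 2 the counts were 31 rises and 2 falls, with the call of Irf1 lost (adjusted p = 0.0686 by limma), and the differences were 2.09 for Irf5, 2.04 for Oasl1, 2.02 for Oas1a, 2.01 for Mx1, -1.13 for Ifi27l2a and -0.53 for Isg20. On the first replicates alone the calls of Ddx58 (0.33), Eif2ak2 (0.30), Gbp3 (0.23), Irf1 (0.28), Isg20 (-0.38), Psmb8 (0.37) and Xaf1 (0.50) were lost, and those of Ddx58, Eif2ak2, Gbp3, Irf1 and Psmb8 were also lost without some single days. In a pool of whole fat pads, more cells of a type and more RNA per cell cannot be told apart.

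**Figure D2:**
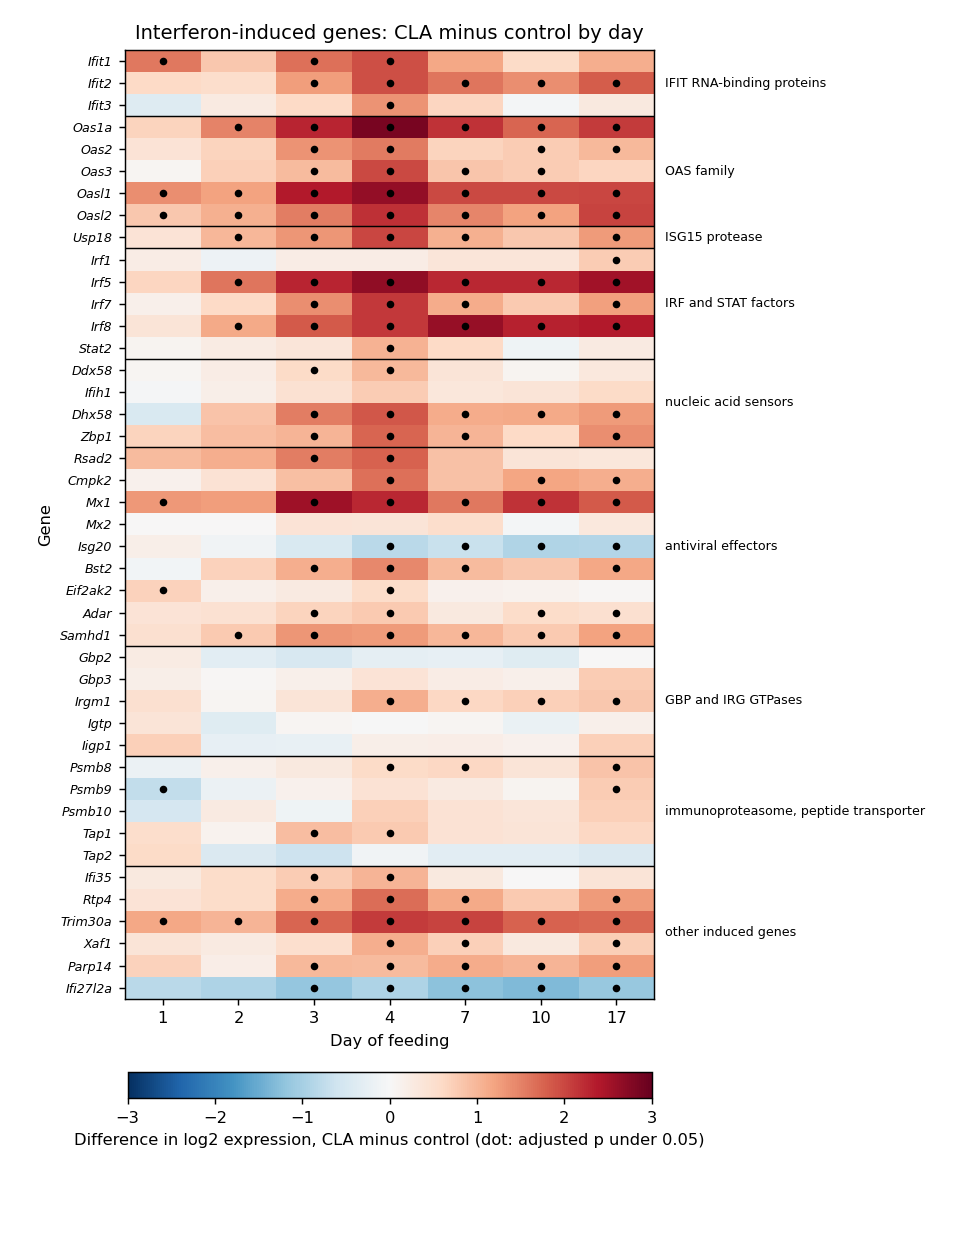
Difference in log2 expression, CLA minus control, of each of the 43 genes (rows, grouped by role) on each day (columns), with a dot where the adjusted p was under 0.05. Rises begin in a few genes on day 1 and cover 31 of the 43 genes on day 4, while Ifi27l2a is blue on every day.

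The 2′-5′-oligoadenylate synthetase (OAS) family detects double-stranded RNA, and all 5 measured members rose over the 7 days, by 0.85 to 1.95. Oas1a was between 7.15 and 9.14 (median 7.52) on the 14 control arrays and between 8.07 and 10.29 (median 9.69) on the 14 CLA arrays. Its rise over the 7 days was 1.90 ± 0.22 (SE, n = 7 days, adjusted p = 0.000206 by limma), a 3.73-fold difference. The groups did not overlap on any day, and across days the CLA arrays of day 1, at 8.07 and 8.13, lay below the first control array of day 2, and the lower of them also below that of day 10, at 8.09.
On day 4 the CLA arrays of Oas1a read 10.04 and 10.29 and the control arrays 7.15 and 7.50, the largest difference of any of the 43 genes on any day, 2.84 ± 0.32 (SE, n = 2 arrays each, adjusted p = 2.04e-06 by limma). Oasl1, an OAS-like protein without the enzyme activity that damps Irf7 translation, was between 4.72 and 6.51 (median 5.14) on control and between 6.22 and 8.08 (median 7.07) on CLA. Its rise was 1.95 ± 0.16 (SE, n = 7 days, adjusted p = 4.07e-05 by limma), and only the first control array of day 2 reached into the CLA range. Oasl1, Oasl2 and Trim30a, a regulator of Toll-like receptor signalling, were the 3 genes that passed on every day. Oas3, the longest of the synthetases, was low on control (3.27 to 3.82) and reached 5.24 and 5.56 on CLA on day 4.

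The IFIT proteins bind viral RNA and slow its translation. Ifit1 and Ifit2 rose over the 7 days by 1.26 and 1.31, while Ifit3 differed by 0.39 and did not pass (adjusted p = 0.127 by limma). On day 1 Ifit1 had the largest rise of the 43 genes. Its CLA arrays read 9.09 and 8.16 and its control arrays 7.64 and 6.44, so the groups did not overlap, and the difference was 1.59 ± 0.47 (SE, n = 2 arrays each, adjusted p = 0.0225 by limma). The call was lost without the first CLA array of that day (1.12) or the second control array (0.99).

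Of the 9 other antiviral effectors, 7 rose, 1 fell and Mx2 did not pass, with a difference of 0.23. Mx1, which in most inbred laboratory strains carries a deletion that leaves no working protein, was between 3.58 and 6.20 (median 3.82) on control and between 4.75 and 6.60 (median 5.90) on CLA. It rose by 1.85 ± 0.16 over the 7 days (SE, n = 7 days, adjusted p = 4.88e-05 by limma), a 3.61-fold difference. On day 3 its CLA arrays read 6.15 and 6.60 and its control arrays 3.83 and 3.83, a difference of 2.55 ± 0.44 (SE, n = 2 arrays each, adjusted p = 0.00024 by limma) that was the largest of that day. Rsad2 (viperin, which makes a chain-terminating nucleotide) rose by 1.00, Samhd1 (which removes deoxynucleotides) by 0.98, Cmpk2 (a mitochondrial nucleotide kinase) by 0.90 and Bst2 (tetherin, which holds budding virus at the cell surface) by 0.86. The sizes for Samhd1 and Cmpk2 rest on the probe set used. Further probe sets of Samhd1 differed by 1.25, 0.47, 0.49 and 0.44, at mean levels of 8.17, 7.94, 7.89 and 4.34. That of Cmpk2 differed by 0.20, at a mean level of 4.76. Adar, which edits double-stranded RNA, rose by 0.52, and Eif2ak2, the kinase PKR that stops translation, by 0.28. Eif2ak2 had its largest rise on day 1, with 6.35 and 6.22 on CLA and 5.52 and 5.67 on control, and its call over all days was lost without day 1, 2, 3 or 4, at 0.21 to 0.30. Its further probe sets, at mean levels of 5.30 and 5.83, differed by 0.51 and 0.61 over the 7 days.

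Isg20, an exonuclease that degrades single-stranded RNA, went the other way. It was between 7.87 and 8.61 (median 8.31) on control and between 7.28 and 8.44 (median 7.69) on CLA. Both CLA arrays lay above both control arrays on day 1, the groups overlapped on day 2, and both CLA arrays lay below from day 3 on. It fell by 0.52 ± 0.14 over the 7 days (SE, n = 7 days, adjusted p = 0.0159 by limma), and the call was lost on the first replicates alone (-0.38). It did not pass on days 1, 2 and 3 and fell on days 4, 7, 10 and 17. On day 10 the CLA arrays read 7.64 and 7.70 and the control arrays 8.53 and 8.61.

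Usp18, which removes ISG15 from its targets and shuts down type I receptor signalling, rose by 1.12 ± 0.16 (SE, n = 7 days, adjusted p = 0.000626 by limma). It passed on days 2, 3, 4, 7 and 17.

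Among the transcription factors, Irf5, Irf7, Irf8 and Irf1 rose, and Stat2 differed by 0.36 and missed the threshold (adjusted p = 0.0518 by limma). Irf5, which acts downstream of Toll-like receptors and is known to be high in inflammatory macrophages, had the largest rise of all 43 genes over the 7 days, 2.03 ± 0.22 (SE, n = 7 days, adjusted p = 0.000151 by limma), or 4.09-fold. It was between 5.51 and 6.86 (median 6.14) on control and between 5.94 and 8.90 (median 8.39) on CLA.
The Irf5 arrays of day 1 read 5.94 and 6.59 on CLA and 5.51 and 5.74 on control, and from day 2 on the CLA arrays stood at 7.78 or higher. On day 2 they read 7.78 and 8.38 against 6.86 and 6.09, the largest rise of that day, 1.61 ± 0.26 (SE, n = 2 arrays each, adjusted p = 0.000697 by limma), and 1.99 without the first control array. On day 17 they read 8.67 and 8.40 against 5.76 and 6.27, again the largest rise, 2.52 ± 0.26 (SE, n = 2 arrays each, adjusted p = 1.3e-06 by limma). A second probe set of Irf5, with a lower mean, differed by 0.22 over the 7 days, so the size rests on the probe set used.

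Irf8, which directs the development of monocytes and dendritic cells, was between 6.31 and 7.92 (median 6.85) on control and between 6.88 and 9.83 (median 8.93) on CLA. On day 1 its arrays overlapped, with 6.88 and 7.22 on CLA and 7.00 and 6.31 on control. On day 7 they read 8.96 and 9.83 against 6.85 and 6.73, a difference of 2.61 ± 0.33 (SE, n = 2 arrays each, adjusted p = 1.36e-05 by limma), and on day 10 they read 8.91 and 9.32 against 6.56 and 7.05, a difference of 2.31. These were the largest rises of those days. Irf7, the factor that amplifies type I interferon production, differed by 0.16 on day 1 and rose by 2.11 on day 4, with 8.93 and 8.80 on CLA and 6.52 and 6.99 on control. Irf1, a target of interferon gamma, passed on day 17 alone among single days, by 0.77, and its call over all days was lost without day 3, 4, 7, 10 or 17, at 0.21 to 0.30.

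**Figure D3:**
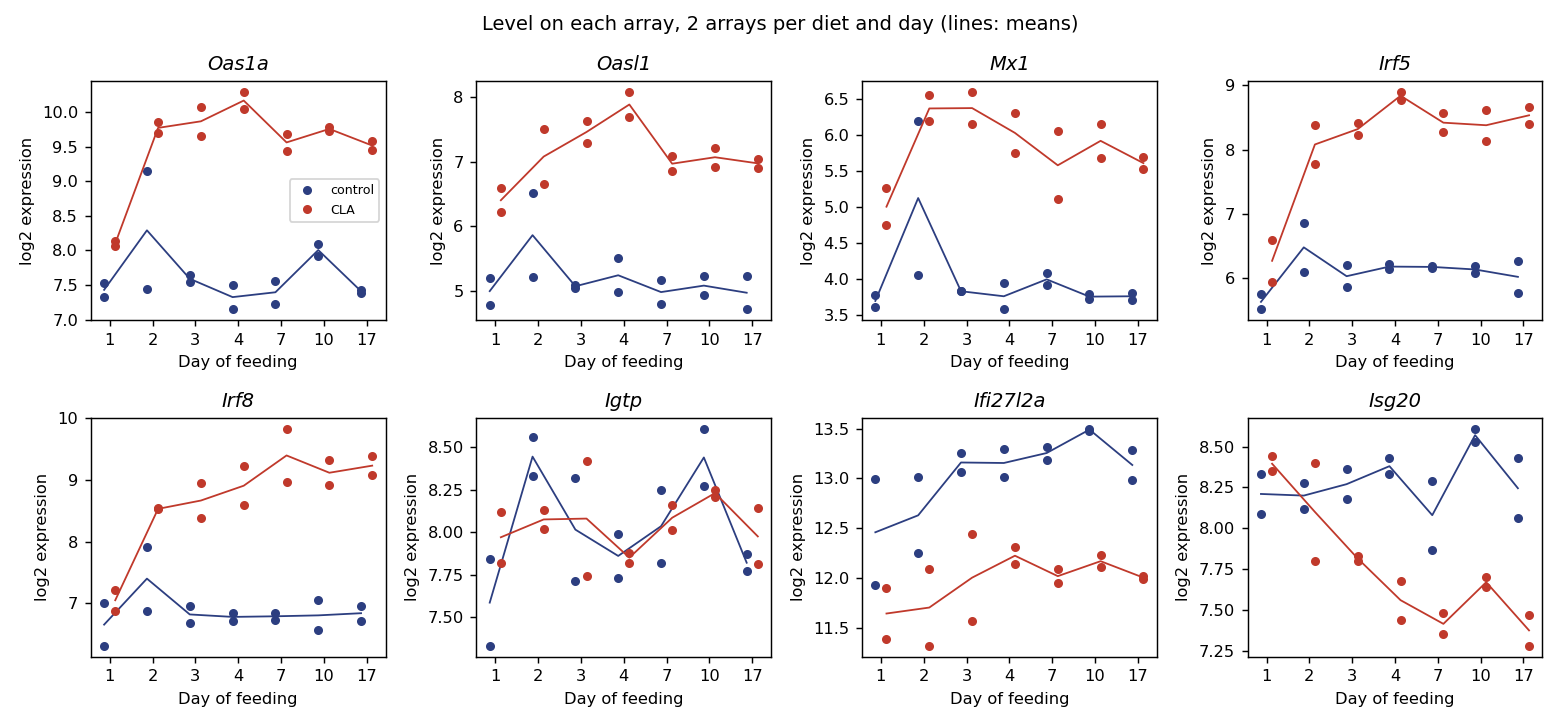
Log2 expression on each array (vertical axes, points) of 8 of the genes by day of feeding (horizontal axes), in control (blue) and CLA (red), with lines through the means of 2 arrays. Oas1a, Oasl1, Mx1 and Irf5 lie higher on CLA by their means on every day, Irf8 reaches its highest value of 9.83 on day 7, the CLA range of Igtp lies within its control range, Ifi27l2a lies lower on CLA on every day, and Isg20 lies lower from day 3 on.

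The 4 nucleic acid sensors rose over the 7 days. Zbp1, a sensor of left-handed nucleic acid, rose by 1.05 and Dhx58 (LGP2) by 1.05, Ifih1 (MDA5) by 0.38 and Ddx58 (RIG-I) by 0.37. The call of Ddx58 was lost without day 3 (0.34) or day 7 (0.37). The size for Dhx58 rests on the probe set used, at a mean level of 6.42. Of its 2 further probe sets 1 differed by -0.14 and the other by 0.46. Their mean levels of 3.54 and 3.36 lay below the array medians, so they cannot decide on the rise. Ifih1 passed on no single day, and its control arrays of day 1 read 9.03 and 8.29.

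The interferon-inducible GTPases, which attack the vacuoles of intracellular pathogens and are known as strong targets of interferon gamma, gave 2 rises among 5 genes. Irgm1 rose by 0.59 and Gbp3 by 0.27 over the 7 days, while Iigp1 (0.22), Igtp (0.01) and Gbp2 (-0.20) did not pass. The call of Gbp3 was lost without day 3, 4, 7, 10 or 17, at 0.19 to 0.30, and without the day block. Igtp was between 7.33 and 8.61 (median 7.93) on control and between 7.74 and 8.42 (median 8.07) on CLA, and the CLA range lies within the control range. Irgm1 was between 6.60 and 7.47 on control and between 6.97 and 8.10 on CLA. It was the one gene of this group that passed on a single day, on days 4, 7, 10 and 17.

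The immunoproteasome subunits and the TAP transporter prepare and carry peptides for MHC class I. Psmb8 rose by 0.39 and Tap1 by 0.54 over the 7 days, and Psmb9 (0.11), Psmb10 (0.26) and Tap2 (-0.23) did not pass. The call of Psmb8 was lost without day 4, 7, 10 or 17, at 0.31 to 0.39. The rise of Tap1 rests on the probe set used, and its call was not kept under every alternative run. The 3 further probe sets of Tap1 differed by 0.05, -0.10 and -0.06. Their mean levels of 2.51, 3.46 and 2.85 lay below the array medians, so they cannot decide on the rise. Psmb9 was the one gene that changed sign between called days. On day 1 its CLA arrays read 6.24 and 6.29 and its control arrays 6.86 and 7.14, a fall of 0.74 ± 0.21 (SE, n = 2 arrays each, adjusted p = 0.0179 by limma). On day 17 its CLA arrays read 8.29 and 8.03 and its control arrays 7.33 and 7.48, a rise of 0.76 ± 0.21 (SE, n = 2 arrays each, adjusted p = 0.0136 by limma). The day 1 call was lost without either CLA array or without the second control array, at -0.60 to -0.76.

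Of the 6 remaining genes, Trim30a rose by 1.65, Rtp4 by 0.99, Parp14 (an ADP-ribosyltransferase) by 0.88, Xaf1 (a promoter of apoptosis) by 0.57 and Ifi35 by 0.48. Ifi27l2a, a small protein of the IFI27 family, fell. It was between 11.93 and 13.50 (median 13.13) on control and between 11.32 and 12.44 (median 12.06) on CLA, a fall of 1.07 ± 0.07 (SE, n = 7 days, adjusted p = 1.71e-05 by limma), or 2.10-fold. The groups did not overlap on any day. The fall did not pass on day 1, nor on day 2 with all arrays (-0.93). Without the first control array of day 2 it passed there, at -1.31 (adjusted p = 0.0247 by limma). From day 3 on it lay between -0.93 and -1.32 and was the largest fall of each day. On day 10 the arrays read 12.23 and 12.11 on CLA and 13.50 and 13.48 on control.

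By day, 6 genes rose and 1 fell on day 1, with a median difference over the 43 genes of 0.40, against 7.96% of all genes rising and 10.8% falling. On day 2, 8 rose and 0 fell (median 0.45), against 4.84% and 5.34%. On that day 18 of the 43 genes had an unadjusted p under 0.05, against 3714 of all 18194 genes. On day 3, 24 rose and 1 fell (median 0.91), against 11.3% and 11.0%. On day 4, 31 rose and 2 fell (median 1.10), against 12.8% and 11.3%. The counts were highest on day 4 and lower on the days next to it.
On day 7, 20 rose and 2 fell (median 0.67), against 8.74% and 8.57%. On day 10, 16 rose and 2 fell (median 0.56), against 10.0% and 10.2%. On day 17, 24 rose and 2 fell (median 0.77), against 11.5% and 8.78%. The median over all genes lay between -0.07 and 0.01 on the 7 days.
With all arrays included, the counts of genes with both CLA arrays above both control arrays were 22, 17, 32, 37, 34, 26 and 35 in the order of the days, against 22.5%, 19.0%, 29.1%, 28.5%, 23.7%, 23.4% and 30.1% of all genes. Both CLA arrays lay below both control arrays for 4, 3, 4, 3, 2, 4 and 2 of the 43, against 22.4%, 23.5%, 28.7%, 31.4%, 29.6%, 33.3% and 33.4%.

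Single arrays moved several of these counts. The shares of all genes beside them are those with all arrays included, and the shares without single arrays are not given. The day 1 count of 7 genes called in either direction, against 18.8% of all genes, became 3 or 4 without the first or the second CLA array and 1 without the second control array. The day 2 count of 8, against 10.2%, became 18, with 17 rises and 1 fall and a median of 0.74, without the first control array, when Mx1 rose by 2.32 and Oas1a by 2.33, and 1 without the second CLA array or the second control array. The day 3 count of 25, against 22.3%, became 13 without the second CLA array and 15 without the second control array. The day 7 count of 22, against 17.3%, became 12 without either CLA array or the second control array. The day 10 count of 18, against 20.3%, became 11 without the second CLA array, and the day 17 count of 26, also against 20.3%, became 16 without the first CLA array. The day 4 count of 33, against 24.1%, stayed between 25 and 34, and 25 of its 33 calls were kept whichever of the 28 arrays was left out.

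For 23 of the 32 genes that rose over the 7 days, the largest daily difference was on day 4, against 26.3% of all 3398 genes that rose. Mx1, Samhd1 and Tap1 had it on day 3, Eif2ak2 on day 1, Irf8 on day 7, and Irf1, Gbp3, Psmb8 and Parp14 on day 17. The number with day 4 was 17 without the first control array of day 4 and 21 to 25 without any other array. That control array held the lowest control value of 13 of the 43 genes (30.2%), against 10.4% of all genes. Read by the CLA level alone, 18 of the 32 were highest on day 4, against 23.7% of the genes that rose, and 6 were highest on day 2. The control level was lowest on day 1 for 15 of the 32 and on day 4 for 10. These are descriptions, with no test of the day.

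**Figure D4:**
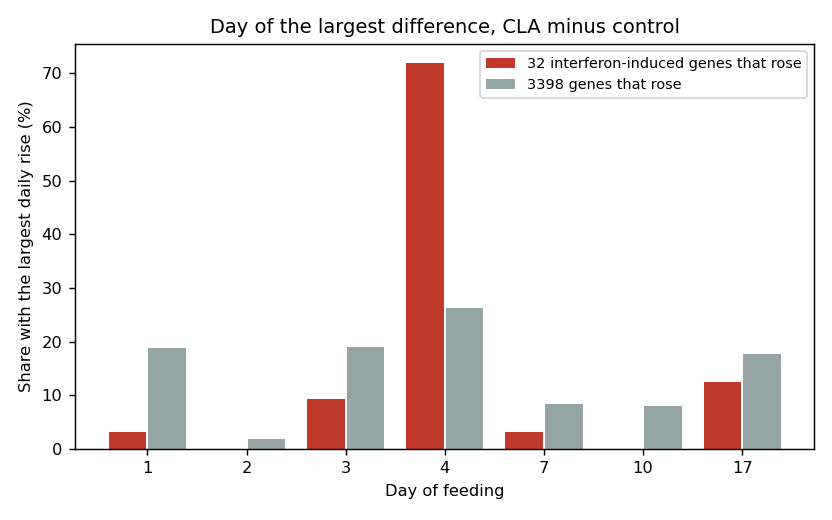
Share of genes (vertical axis, percent) whose largest daily difference, CLA minus control, fell on each day of feeding (horizontal axis), for the 32 interferon-induced genes that rose (red) and all 3398 genes that rose (grey). The red bar of day 4 stands for 23 of 32 genes and the grey bars, in the order of the days, for 18.8%, 1.91%, 18.9%, 26.3%, 8.42%, 7.89% and 17.7%.

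The size of the CLA effect differed between days for 5 genes by the interaction test, against 9.82% of all genes: Irf5, Irf8, Isg20, Oas3 and Psmb9. For Irf5 the daily differences ran from 0.64 on day 1 to 2.67 on day 4 (adjusted p = 0.00946 by limma), and for Irf8 from 0.40 on day 1 to 2.61 on day 7 (adjusted p = 0.0228 by limma). For Isg20 they ran from 0.19 on day 1 to -0.90 on day 10 (adjusted p = 0.0321 by limma). The count of 5 was 0 without the first CLA array of day 1, 10 without the first control array of day 2 and 17 without the second.
Late minus early is the mean effect of days 7, 10 and 17 less that of days 1, 2 and 3, and it was above 0 for 5 genes that passed, Irf8 (1.31), Irf5 (0.83), Ifit2 (0.81), Psmb9 (0.63) and Psmb8 (0.53), against 6.2% of all genes, and below 0 for Isg20 (-0.69), against 3.51%. The 6 calls stand against 9.71% in either direction. Across the control days 16 of the 43 genes had an unadjusted p under 0.05 with limma, against 1069 of all 18194 genes. After adjustment 0 of the 43 passed, against 0.115% of all genes. The count among the 43 was 6 without the second control array of day 2. It was also above 0 with a replicate block, as given with the processing.

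The genes that lead to an interferon response were read from lists set beside the members. None of the 10 measured interferon genes, 8 of the alpha and zeta kind besides Ifnb1 and Ifng, passed in any comparison with limma, and 0 or 1 of them had an unadjusted p under 0.05 on a given day. Ifnb1 averaged 3.38 on CLA and 3.39 on control, and Ifng 2.85 and 2.82, both near the low end of the array's values. Of 10 receptor chains, kinases and Irf9, 6 rose and 1 fell over the 7 days. The counts of this list and the next ones stand against 18.7% of all genes that rose and 19.8% that fell. Il10rb, a chain of the type III receptor, rose by 1.08, Ifngr2 by 0.85 and Irf9, a transcription factor that binds the ISRE, by 0.78, while Ifnar2 fell by 0.55.
Of 11 genes that sense nucleic acid or relay that signal ahead of interferon production, 7 rose and 1 fell. Ikbke, a kinase that activates IRF3 and IRF7, rose by 2.05, Tlr7, a receptor for single-stranded RNA, by 1.85, Myd88, its adaptor, by 0.89 and Sting1 by 0.83. Of 6 feedback genes, 4 rose and 1 fell. Socs3, an inhibitor of JAK signalling, averaged 10.05 on CLA and 6.44 on control on day 1, a difference of 3.61, and differed by 0.47 to 1.52 on the later days.
Of 50 further genes known to be induced by interferon, 25 rose and 3 fell over the 7 days, with a median of 0.37. Of all genes, 18.7% rose and 19.8% fell, with a median of -0.03. Slfn4, a schlafen of myeloid cells, rose by 2.70, Cxcl10, a chemokine that draws T cells, by 2.56, Slfn2 by 1.98 and Ifi207 by 1.98. Cxcl10 averaged 10.84 on CLA and 5.29 on control on day 1, and 8.17 and 6.53 on day 2. The falls were those of Cd274 (-0.94), Gbp6 (-0.64) and Cxcl9 (-0.48), a chemokine induced by interferon gamma.

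Cell type markers moved over the same days, over which 18.7% of all genes rose and 19.8% fell. Of all 18194 genes, 8309 had an unadjusted p under 0.05 over the 7 days. Of 12 macrophage markers, 11 rose over the 7 days and 0 fell (12 had an unadjusted p under 0.05), and the mean of the 12 was between 8.02 and 9.16 on the control arrays and between 8.23 and 10.76 on the CLA arrays. The CLA minus control difference of that mean was 0.21 on day 1, 0.94 on day 2, 1.46 on day 3, 1.86 on day 4 and 1.99 to 2.31 on days 7, 10 and 17. Of these markers, 10 passed as higher late than early, against 6.2% of all genes. Of 8 adipocyte markers all fell, with a CLA minus control difference of their mean between -1.72 and -0.84 on the 7 days, and of 5 endothelial markers 4 fell. Of 6 natural killer cell markers 5 rose, and of 6 plasmacytoid dendritic cell markers and 6 T cell markers 0 passed over the 7 days with limma (2 and 1 had an unadjusted p under 0.05). The part of these cells in the interferon-induced genes was not tested.

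**Figure D5:**
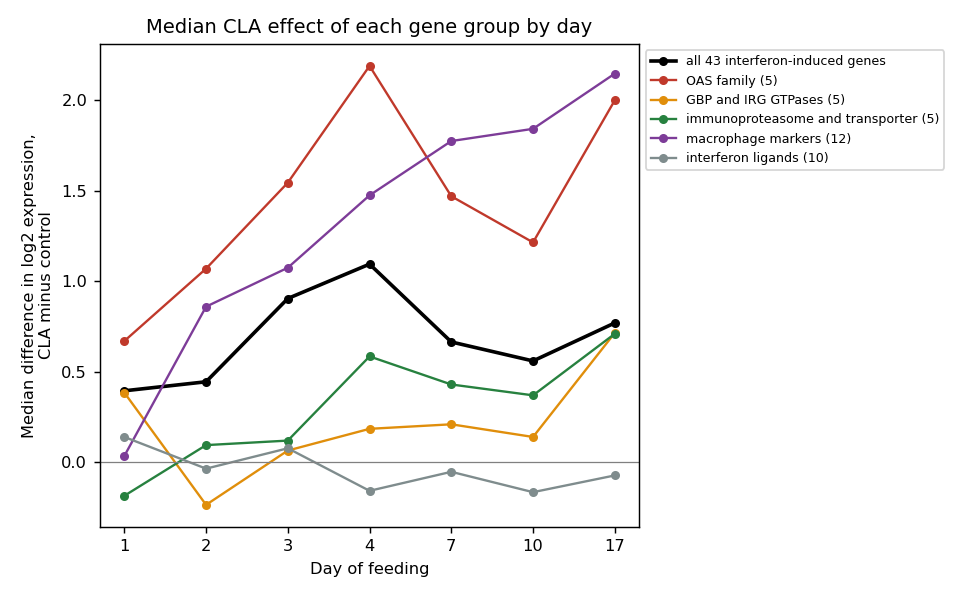
Median difference in log2 expression, CLA minus control (vertical axis), of the 43 genes, 3 of their role groups, 12 macrophage markers and 10 interferon genes by day of feeding (horizontal axis). The median of the OAS family reaches 2.19 on day 4, that of the macrophage markers reaches 2.15 on day 17, and that of the interferon genes stays between -0.17 and 0.14.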

How the data were processed

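The authors deposited 1 log2 value for each probe set and array. RMA, which corrects background, equalises the arrays by quantiles and summarises probes, is named without a version in the submitters' processing notes. They were used as deposited, with no filter. Per the labels, cRNA labelled with biotin came from 15 µg of Trizol-extracted RNA. Of 45101 probe sets, 34958 name 1 gene, 932 several and 9211 none in GEO's platform annotation, and 34754 matched RefSeq by gene ID.

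Limma 3.58.1 in R 4.3.3 was fitted to all 18194 genes. A model of the 14 groups (14 residual degrees of freedom) gave the days, late minus early, the interaction and control by day. The 14 group means with the day as a block (6 degrees of freedom) gave the effect over all 7 days. The interaction and control by day were tested with F tests, and the other tests were two-sided. All had Benjamini-Hochberg adjustment over all genes, and the fits were tested on simulated data. Figures used matplotlib 3.10.9 in Python 3.11.15.

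The members and lists were chosen with earlier results of these data known. Genes given array by array were the 4 largest rises and falls over all 7 days, the largest rise and fall of each day, and the 3 smallest interaction p-values. Other members and array values were added for description after their values were seen. The alternatives were other scaling, a mean-level filter of 5, other probe set choices, other variance priors, separate fits, a replicate block and leaving out arrays, days or replicates.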

Additional observations from a re-analysis of the deposited data

Results flagged for a closer look

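For 5 genes the CLA effect differed between days by limma's interaction test, with adjusted p-values from 0.00946 to 0.0359, against 9.82% of all genes, so that 5 of 43 is near the share of all genes. The gap between the largest and the smallest daily difference was 2.03 log2 units for Irf5, 2.21 for Irf8, 1.09 for Isg20, 1.92 for Oas3 and 1.49 for Psmb9. No call of the 5 was kept whichever of the 28 arrays was left out.

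For 6 genes the mean effect on days 7, 10 and 17 differed from that on days 1, 2 and 3, with adjusted p-values from 0.00379 to 0.0435 by limma, against 9.71% of all genes. The late minus early value was 1.31 for Irf8, 0.83 for Irf5, 0.81 for Ifit2, 0.63 for Psmb9, 0.53 for Psmb8 and -0.69 for Isg20. The calls of Irf5, Irf8, Isg20 and Psmb8 were kept whichever array was left out, and those of Irf8 and Isg20 under every alternative run. None of the 6 calls changed sign. Adar, which did not pass for late minus early (-0.07), passed at 0.85 with its most variable probe set (adjusted p = 0.0176 by limma).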

How the results depend on the processing

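Over all 7 days the count of 34 genes called stayed between 27 and 39 when each day, each set of replicates or the first control array of day 2 (an alternative added after seeing the data) was left out, and between 32 and 36 under the other alternatives. Of the 34 calls, 26 were kept under all 19 alternatives and none changed sign. With arrays left out in turn, the counts ran from 1 to 9 on day 1, 1 to 18 on day 2, 13 to 26 on day 3, 25 to 34 on day 4, 12 to 23 on day 7, 11 to 20 on day 10, 16 to 27 on day 17, 4 to 9 for late minus early, 0 to 17 for the interaction and 0 to 6 for control by day. A separate fit of 4 arrays called 0 genes on day 1 and 0 on day 2. With day 4 among the early days, late minus early called 2, and with the mean of all probe sets the interaction called 8. The causes were not tested.

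The residuals of arrays with the same replicate number correlated at 0.098 to 0.57 across the 7 days, the lowest on day 7, so the numbers were not taken as pairs. The correlation was above 0 on each of the 7 days, a hint of pairing from the data alone. With a replicate block, 12 genes were called on day 1, 14 on day 2, 10 for late minus early, 9 for the interaction and 12 for control by day, and 36 over all 7 days.

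The number of arrays and the signal over background limit what can be seen. The interferon genes lay near the lowest signal, and a daily difference carried a standard error of 0.14 to 0.53 log2 units.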

Other observations

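Markers of other blood cells gave a few values that belong to no comparison of the interferon-induced genes. Of 6 neutrophil markers 2 rose on day 1, S100a8 and S100a9, against 7.96% of all genes. Over the 7 days 0 rose with limma and Elane fell, and 2 had an unadjusted p under 0.05, against 8309 of all 18194 genes. The natural killer cell markers were highest on day 7, when 5 of 6 rose, against 8.74% of all genes, and their mean was 1.09 higher on CLA. Gzma, a granzyme of cytotoxic cells, rose by 1.12 over the 7 days, named here after its value was seen.

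On the control diet, the first array of day 10 held the highest control value of 10 of the 43 interferon-induced genes (23.3%), against 7.73% of all genes.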
